A study of Mus musculus with 8 samples.

Results

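The Hox genes of the mouse were followed here across 4 groups of day 9 embryoid bodies. Members were all names made of Hox, a cluster letter from a to d and a number, which leaves out antisense and host RNAs. The rule found 39 genes on 35 loci, among 53680 gene names on 52281 named loci. A locus is the unit that the deposited table counts, and 5 loci carried a pair of Hox names. These were Hoxa2 with Hoxa3, Hoxb3 with Hoxb6, Hoxc5 with Hoxc10, Hoxd3 with Hoxd4, and Hoxd10 with Hoxd11, so that their values belong to no single gene. Hoxc4 was listed on 2 loci, which are given apart.

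Hox genes encode homeodomain transcription factors that give cells their position along the head-to-tail axis. They lie in 4 clusters, and genes at the same place in different clusters are called paralogues and share a number. In embryos, low-numbered genes are switched on earlier and reach further towards the hindbrain, and high-numbered genes come on later in the trunk, tail and limb buds. Retinoic acid and Cdx factors help to switch clusters on, Polycomb proteins hold silent Hox genes under repressive chromatin, and Trithorax proteins counter that. Pbx and Meis proteins bind DNA together with Hox proteins.

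Embryoid bodies are aggregates in which embryonic stem cells differentiate into a mixture of germ layer derivatives. On a C57BL/6 background 4 groups were labelled, with 2 libraries each: cells lacking Prdm16, wild-type cells kept as their control, cells lacking the PR domain of Prdm16 (named for exon 4 in the labels), and wild-type cells kept as the control for those. Prdm16 is a zinc finger transcription factor whose PR domain is related to histone methyltransferase domains. The labels do not say whether replicates were separate cultures, so p-values measure only how far these libraries vary, and that variation may come from the bench alone. It is also not said whether a knockout and its control differ in clone, so that knockout and clone cannot be told apart.

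Libraries held between 6273789 and 9086885 fragments on named loci. Values below are the fragments of a locus after the authors' size factor scaling, called normalised fragments. The Prdm16 locus had 11.2 and 1.10 normalised fragments in the Prdm16 knockout, against 24.4 and 26.3 in its control. It had 23.3 and 15.7 in the PR domain knockout, against 44.6 and 22.7 in its control, and a value over the whole locus does not check the loss of a single exon. Some markers of lateral mesoderm, visceral endoderm, blood and neural progenitors were detected in each of the 4 groups, and Olig2 and Msx3 of the neural list were at 0 in the 4 libraries of the PR domain knockout and its control. In bulk RNA, fewer cells of a type and less RNA per cell cannot be told apart, which holds for every difference below.

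The promoters of 4 members that carry the results are shown first. Hoxb4, Hoxd8 and Hoxd9 had the 3 smallest adjusted p-values in the Prdm16 knockout, and Hoxa13 was called in the PR domain knockout. Each line gives the 250 bases before the RefSeq start in GRCm38.p6, from 5′ to 3′ on the strand of the gene. Capitals mark the letters AGGTCA, or TGACCT where they lie on the opposite strand, the core of retinoic acid receptor sites. Hoxd8 was read from chr2:74704365-74704614, Hoxd9 from chr2:74697513-74697762 and Hoxb4 from chr11:96318017-96318266, all on the plus strand. Hoxa13 was read from chr6:52260881-52261130 on the minus strand.
Hoxd8: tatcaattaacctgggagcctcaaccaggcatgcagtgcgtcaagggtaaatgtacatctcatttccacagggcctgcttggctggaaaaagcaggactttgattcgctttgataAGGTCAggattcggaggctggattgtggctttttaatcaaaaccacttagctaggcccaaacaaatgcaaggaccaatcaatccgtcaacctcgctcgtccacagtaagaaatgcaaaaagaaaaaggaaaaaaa
Hoxd9: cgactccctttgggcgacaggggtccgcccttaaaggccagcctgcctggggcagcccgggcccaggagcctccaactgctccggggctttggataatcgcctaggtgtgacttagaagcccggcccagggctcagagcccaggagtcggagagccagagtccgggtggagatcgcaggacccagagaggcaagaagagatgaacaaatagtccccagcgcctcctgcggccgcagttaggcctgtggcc
Hoxb4: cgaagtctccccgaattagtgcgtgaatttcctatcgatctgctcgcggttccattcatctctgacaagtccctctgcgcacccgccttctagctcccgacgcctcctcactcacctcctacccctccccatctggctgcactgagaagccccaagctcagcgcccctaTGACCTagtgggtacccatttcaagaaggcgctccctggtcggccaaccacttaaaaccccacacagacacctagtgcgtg
Hoxa13: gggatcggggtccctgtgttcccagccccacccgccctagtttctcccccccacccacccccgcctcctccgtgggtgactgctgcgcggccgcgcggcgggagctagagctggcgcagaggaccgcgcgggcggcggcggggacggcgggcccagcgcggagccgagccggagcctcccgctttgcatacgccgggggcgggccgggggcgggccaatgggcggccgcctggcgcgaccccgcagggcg
Hoxd8 and Hoxb4 each hold 1 such match, and neither Hoxd9 nor Hoxa13 holds any. GC content was 44.4% in Hoxd8, 65.2% in Hoxd9, 58.0% in Hoxb4 and 80.0% in Hoxa13.

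RefSeq promoters were found for 22 of the 39 genes, as 24 windows of 250 bases, and were set against 32851 windows of all genes. Both strands were searched. AGGTCA was present in 25.0% of Hox windows and 14% of all windows, and the Hox genes that hold it were Hoxb4, Hoxc4, Hoxd3, Hoxd4, Hoxd8 and Hoxd10. The other receptor core, GGGTCA, was in 4.17% of Hox windows and 11.6% of all. The Cdx site TTTATG was in 20.8% of Hox windows and 10.8% of all, namely Hoxa7, Hoxb8, Hoxd3, Hoxd4 and Hoxd11. The Hox-Pbx site TGATNNAT was in 16.7% and 7.68%, and the GC-rich GCGCGC in 12.5% and 11%. The 2 receptor cores differ in their first letter, so no position matches both. Median GC content was 58.6% over Hox windows and 52.4% over all. These matches describe letters in a short window and are not binding sites.

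Hox genes were expressed at a low level throughout. All Hox loci together had 99.9 to 144.1 CPM, scaled to the fragments on named loci. Between 29 and 33 of the 35 loci had at least 1 fragment in a library, and 17 to 23 reached 10 normalised fragments. A locus entered the tests if it reached 10 in at least 2 libraries, which 22 Hox loci did. Of these, 15 reached 10 in all 8 libraries. Hoxa9, Hoxa11, Hoxb5, Hoxb8, the second Hoxc4 locus, Hoxc9 and Hoxd10/Hoxd11 did not. Of these, Hoxa9, the second Hoxc4 locus and Hoxc9 passed only through the Prdm16 knockout and its control, since at most 1 of the other 4 libraries reached 10.

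Hoxb2, a gene of the hindbrain, had the highest level per length, at 11.3 FPKM over all libraries, with a range of 9.20 to 13.3 FPKM. Next came Hoxb3/Hoxb6 at 6.39 FPKM, with a range of 4.79 to 7.95 that does not reach that of Hoxb2, then Hoxb4 at 4.32 FPKM, Hoxd8 at 3.87, Hoxc6 at 2.90 and Hoxc8 at 2.57. From Hoxb3/Hoxb6 down to Hoxc8 the ranges of neighbours overlap, and Hoxc8 ran from 1.46 to 4.10 FPKM. Hoxd9 averaged 2.05 FPKM but ran from 0.759 to 4.56. The lowest of the tested loci was Hoxc9 at 0.574 FPKM, with a range of 0.227 to 1.07, below which came the untested loci.

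The 13 loci that were not tested had 0 to 45 fragments over all libraries. They were Hoxa4, Hoxa5, Hoxa6, Hoxa7, Hoxb1, Hoxb9, Hoxb13, Hoxc11, Hoxc12, Hoxc13, Hoxd1, Hoxd12 and Hoxd13. Hoxc12 had no fragment in any library. Hoxc13 had 5 and 4 fragments in the Prdm16 knockout and 2 and 2 in its control, and none in the 4 libraries of the PR domain knockout and its control. These counts were too low to enter the tests, and a count of 0 allows up to 3 fragments in a library. Hoxb1, an early hindbrain gene, had 2 to 9 fragments in every library. Hoxd1 had 9 and 7 fragments in the Prdm16 knockout and 5 and 6 in its control, and 0 and 6 in the PR domain knockout and 3 and 3 in its control.

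**Figure D1:**
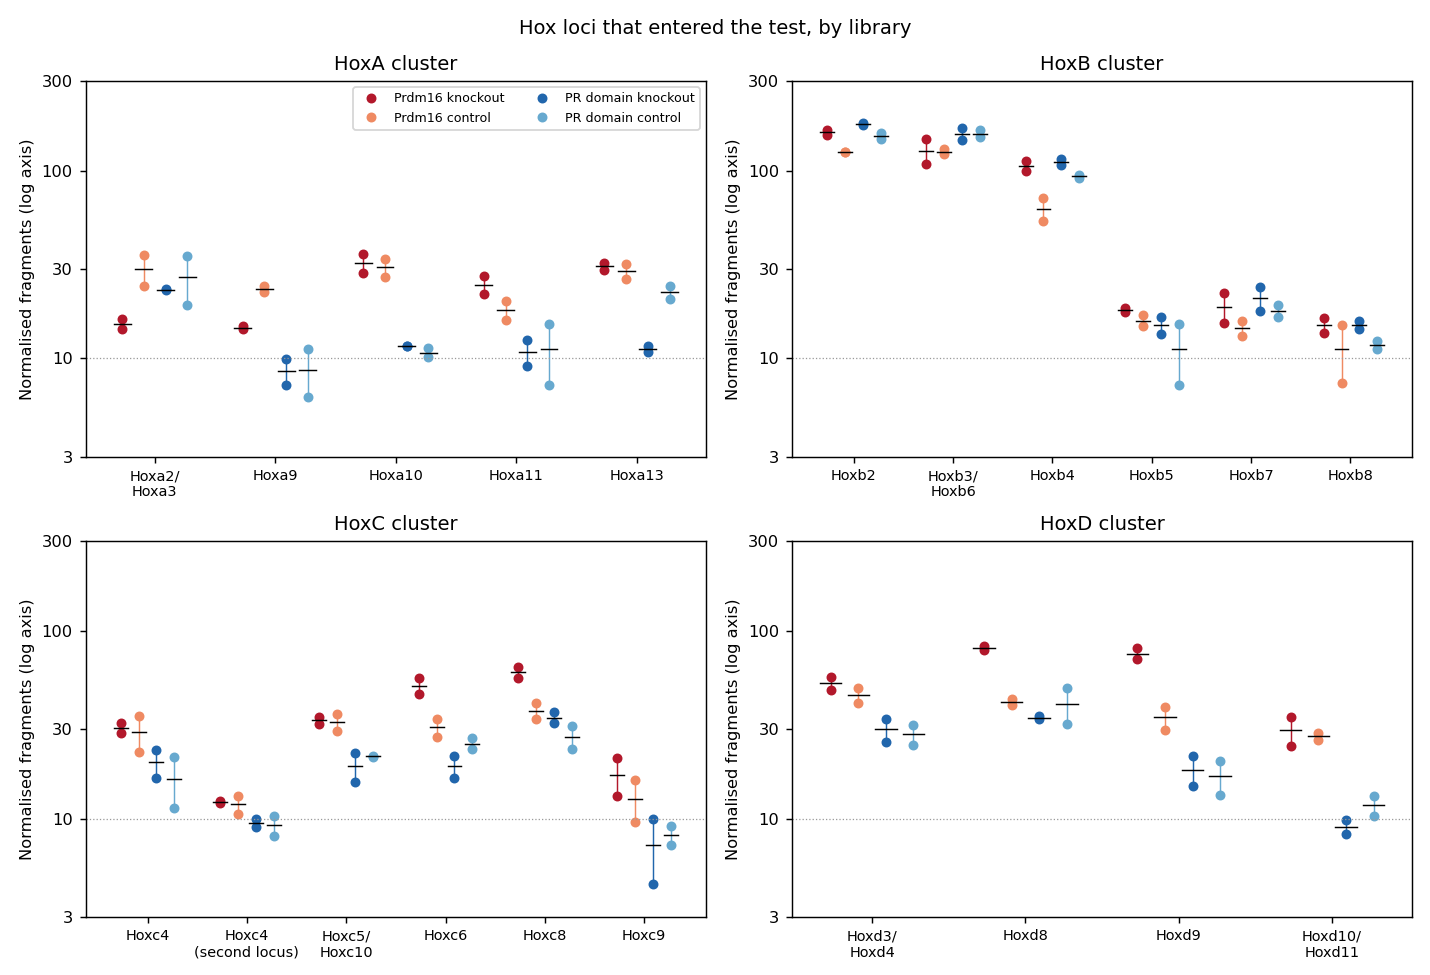
Normalised fragments (log axis) of 21 tested Hox loci, with a panel for each cluster and loci in order of paralogue number. Points are the 2 libraries of a group, short black lines their mean, and the dotted line the value of 10 used in the filter. Hoxb2, Hoxb3/Hoxb6 and Hoxb4 stand highest by their means, and Hoxa10 and Hoxd10/Hoxd11 stand near 10 in the PR domain knockout and its control but near 30 in the Prdm16 knockout and its control.

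The Prdm16 knockout was compared with its own control, the question being which genes depend on Prdm16 during embryoid body differentiation. Of the 22 tested Hox loci, 7 rose and 1 fell at a limma adjusted p below 0.05. The share of loci called, 36.4%, lay near the 39.1% of all 16623 tested loci that were called in this comparison, so the count by itself says nothing particular about Hox genes. By direction, 31.8% of Hox loci were higher and 4.55% lower, against 18.0% higher and 21.1% lower among all loci. Estimates were positive for 19 of the 22, with a median log2 fold change of 0.27, against -0.03 over all tested loci. Both knockout libraries lay above both controls for 9 Hox loci and below both for 2, where the shares over all loci were 31.3% and 36.5%.

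In the HoxD cluster (chr2:74668310-74765142), Hoxd8 and Hoxd9, neighbours that act in the trunk, rose most. Hoxd9 had 80.6 and 70.4 normalised fragments in Prdm16 knockout libraries, against 29.7 and 39.5 in controls. This was a log2 fold change of 1.11 ± 0.29 (SE), with a limma adjusted p of 0.00263. Hoxd8 had 79.4 and 82.5 in the knockout, against 43.5 and 40.4 in controls, a log2 fold change of 0.93 ± 0.23 with a limma adjusted p of 0.00175. The groups do not overlap for either gene. Without Prdm16 control replicate 1, the Hoxd9 call was lost, at 0.91 with a limma adjusted p of 0.0538. On the FPKM scale Hoxd8 was not called, with a log2 fold change of 0.30 and a limma adjusted p of 0.483. Its FPKM values were 5.14 and 5.38 in the knockout, against 4.84 and 3.45 in controls, so the FPKM per fragment of this locus was not the same in every library. The opposite-strand gene Hoxd3os1 overlaps Hoxd8, and without a stated strand setting their reads cannot be told apart. The other HoxD loci that were tested, Hoxd3/Hoxd4 and Hoxd10/Hoxd11, had log2 fold changes of 0.21 and 0.08 and did not pass.

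In the HoxB cluster (chr11:96194316-96368256), Hoxb4 and Hoxb2 rose. Hoxb4, known in mouse and human for its effect on blood stem cell growth, had 99.3 and 112.2 normalised fragments in the Prdm16 knockout, against 54.1 and 71.5 in controls. Its log2 fold change of 0.75 ± 0.17 had a limma adjusted p of 0.000547, and the call held in all 21 alternatives, with values from 0.56 to 0.95. Hoxb2 had 155.1 and 165.0 in the knockout, against 126.2 and 126.0 in controls, a log2 fold change of 0.34 ± 0.12 with a limma adjusted p of 0.0268. Both genes were above both controls in both knockout libraries. The Hoxb2 call was lost without Prdm16 knockout replicate 2 and without either Prdm16 control library, with values of 0.30 to 0.34. Hoxb3/Hoxb6 had 107.9 and 147.4 in the knockout and 123.0 and 129.8 in controls, with overlapping groups and a log2 fold change of -0.0021. Hoxb5, Hoxb7 and Hoxb8 had log2 fold changes between 0.18 and 0.46 and did not pass. In the other pair of groups, Hoxb4 had 107.7 and 115.8 in the PR domain knockout and 94.3 and 91.9 in its control. That wild-type set thus also lay above the Prdm16 control.

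Hoxc6 and Hoxc8, which act in the thoracic region, rose in the HoxC cluster (chr15:102921103-103036852). Hoxc6 had 55.8 and 46.2 normalised fragments in the Prdm16 knockout, against 33.9 and 27.3 in controls, with a log2 fold change of 0.72 ± 0.28 and a limma adjusted p of 0.0400. Hoxc8 had 64.5 and 56.1 in the knockout, against 41.4 and 33.9 in controls, with a log2 fold change of 0.67 ± 0.25 and a limma adjusted p of 0.0321. Neither gene showed overlap between the groups. The Hoxc6 call was lost on leaving out any of the 4 libraries compared, with values from 0.57 to 0.87. The Hoxc8 call was lost without either knockout library and without control replicate 2, with values from 0.53 to 0.77. Hoxc5, whose annotated span covers Hoxc6, Hoxc8, Hoxc9 and part of Hoxc10 on the same strand, could share reads with them. Hoxc4, its second locus, Hoxc5/Hoxc10 and Hoxc9 had log2 fold changes from 0.04 to 0.40 and did not pass.

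In the HoxA cluster, Hoxa2/Hoxa3, genes of the hindbrain and of neural crest in the pharyngeal arches, fell. They had 16.1 and 14.3 normalised fragments in the Prdm16 knockout, against 24.4 and 35.7 in controls. This was a log2 fold change of -0.92 ± 0.33 with a limma adjusted p of 0.0261. No knockout library overlapped a control. The Hoxa2/Hoxa3 call was lost without knockout replicate 2, at -0.83, and without control replicate 2, at -0.65. Hoxa3 overlaps 9 other annotated genes, among them the antisense genes Hoxaas2 and Hoxaas3. Hoxa9 had 14.9 and 14.3 in the knockout, against 24.4 and 22.6 in controls, also without overlap, but its log2 fold change of -0.65 ± 0.40 did not pass, with a limma adjusted p of 0.213. Hoxa10, Hoxa11 and Hoxa13 had log2 fold changes of 0.07, 0.43 and 0.09 and did not pass either.

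Summed over all loci of a cluster, tested or not, HoxD values averaged 252.2 ± 20.5 normalised fragments in the Prdm16 knockout and 164.6 ± 7.92 in its control (SD, n = 2 each), a ratio of 1.53. HoxC sums averaged 212.1 ± 24.6 in the knockout and 157.2 ± 17.5 in the control, a ratio of 1.35. HoxB sums averaged 456.3 ± 34.7 and 364.9 ± 22.7, a ratio of 1.25, and HoxA sums 182.0 ± 16.3 and 189.2 ± 6.86, a ratio of 0.962. By paralogue number, loci numbered 4 to 8 summed to 414.4 and 397.2 in knockout libraries, against 283.1 and 279.3 in controls. Loci numbered 9 to 13 summed to 265.5 and 216.7 in the knockout, against 197.2 and 190.0 in the control. No test was made on these sums.

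Among the 13 paralogue groups, sums were taken over the loci that hold a single number, and only some groups are given here. Group 8, made of Hoxb8, Hoxc8 and Hoxd8, had 157.6 and 155.1 normalised fragments in the Prdm16 knockout, against 92.2 and 89.4 in its control, and 2 of its 3 tested loci rose. Group 9 had 121.6 and 101.2, against 68.9 and 82.8, with Hoxd9 higher and Hoxa9 lower in its estimates, and Hoxa9 did not pass. Estimates within group 9 thus differed in sign. Group 4 was also higher, at 148.9 and 155.1, against 99.7 and 116.6 in the control. Other groups were not: group 7 had 22.3 and 19.8, against 26.5 and 20.7. Group 13 had 43.4 and 37.4, against 42.4 and 33.9, with overlap.

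Markers of other cell types moved with this comparison, in which 18.0% of all tested loci were higher and 21.1% lower. Of 9 tested markers of lateral and cardiac mesoderm, 6 rose and 2 fell, with summed levels of 9207 to 9532 in Prdm16 knockout libraries, against 6011 to 6073 in controls. Of 10 visceral endoderm markers 8 rose and none fell, and their sums were 78140 to 78790 in the knockout, against 37030 to 38680 in the control. Of 12 tested neural progenitor markers, 9 fell and 1 rose. Among the 9, Sox1, Zic1 and Nkx6-1 passed the filter only through the Prdm16 control, where they are high, so their falls are a description and no support. Sums of the list were 1088 to 1118 in the knockout and 1831 to 1866 in the control, and Msx3 and Hes5 were at 0 in both knockout libraries. The part of all these markers in the Hox results was not tested.

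**Figure D2:**
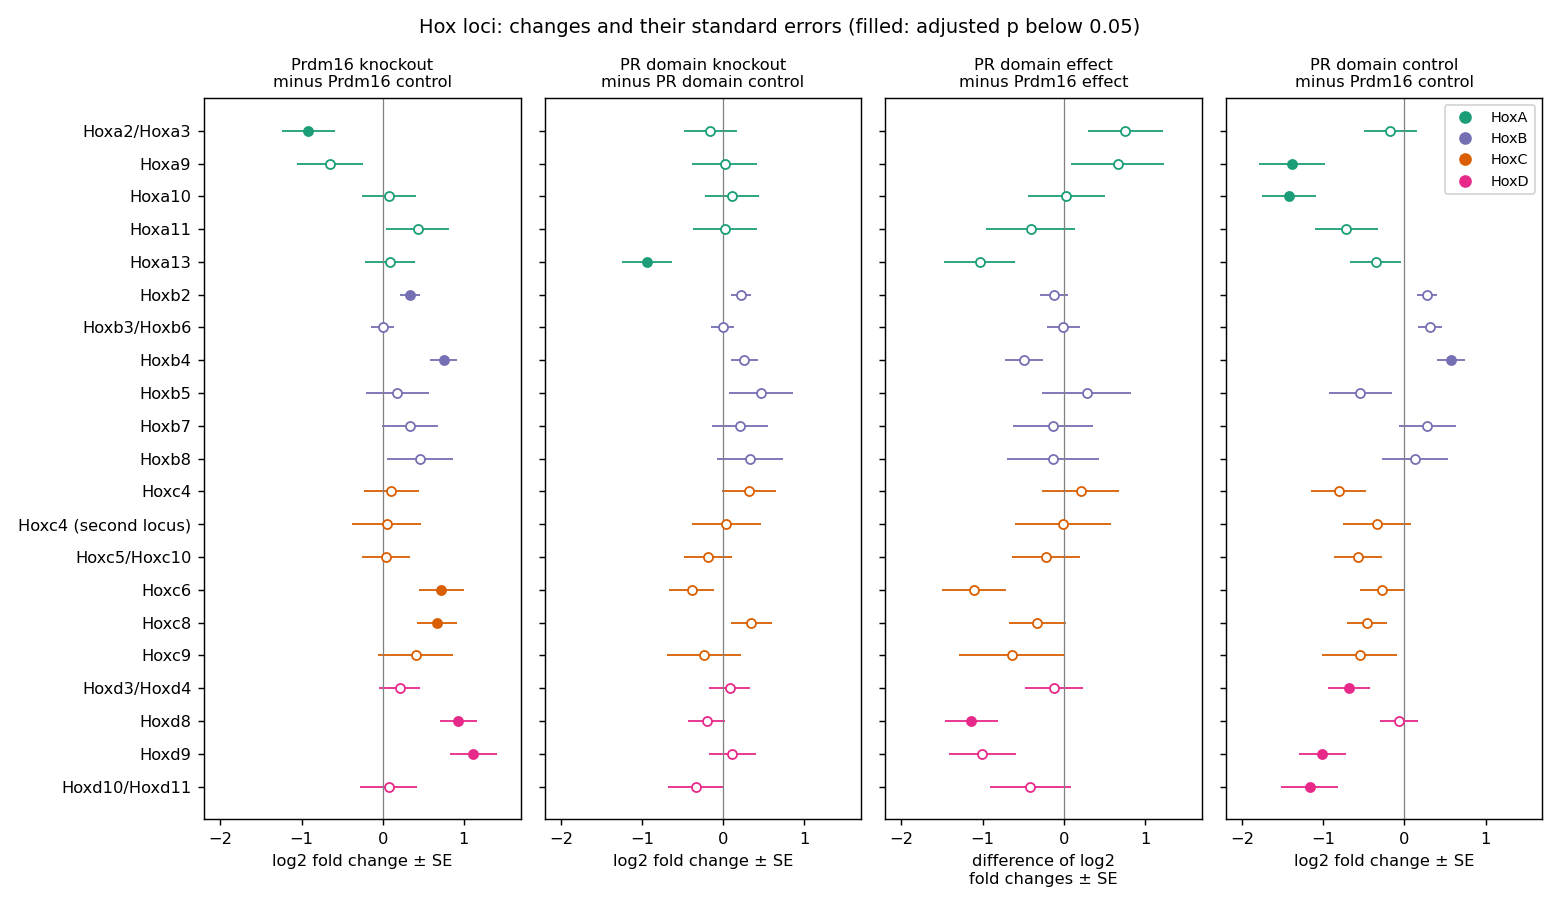
Log2 fold changes (points) with their standard errors (bars) for 21 tested Hox loci in the 4 comparisons, with the difference of the 2 knockout effects in the third panel and the control sets in the last. Filled points have a limma adjusted p below 0.05, and colours give the cluster. Filled points lie right of 0 in the first panel except Hoxa2/Hoxa3, and the last panel has them left of 0 except Hoxb4.

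The PR domain knockout was compared with its control to ask which genes depend on that domain. Only Hoxa13 was called among the 22 tested Hox loci, which is 4.55%, where 19.2% of all tested loci were called, 8.48% higher and 10.7% lower. It was also the only Hox locus with an unadjusted p below 0.05. Hoxa13, a gene of the limb ends and the hindgut, had 11.7 and 10.8 normalised fragments in the PR domain knockout, against 24.3 and 20.6 in its control, and the groups do not overlap. The log2 fold change was -0.94 ± 0.31 with a limma adjusted p of 0.0299. The call was lost on leaving out any of the 4 libraries compared, with values from -1.05 to -0.83. It was also lost with DESeq2, with a log2 fold change of -0.97 and an adjusted p of 0.261. In the other pair of groups, Hoxa13 had 32.3 and 29.7 in the Prdm16 knockout and 31.8 and 26.3 in its control.

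The other 21 loci ran from -0.39 for Hoxc6 to 0.46 for Hoxb5 on the log2 scale. A p above the threshold does not show that they stayed the same. Over all 22 the median was 0.06, against -0.03 over all tested loci. Hoxb2 had 174.9 and 180.3 normalised fragments in the PR domain knockout, against 147.0 and 158.9 in the control. Hoxb4 had 107.7 and 115.8, against 94.3 and 91.9. For both genes the knockout libraries lay above the controls, at log2 fold changes of 0.22 ± 0.12 and 0.26 ± 0.17 that did not pass. In all, 6 loci were above both controls in both knockout libraries and 3 below, where the shares over all loci were 24.7% and 31.9%. Hoxd8 had 35.0 and 33.9 in the knockout, against 49.7 and 32.0 in the control, and Hoxd9 21.5 and 14.9, against 20.3 and 13.4, so the groups overlap for both.

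No test was made on cluster sums here. HoxB sums averaged 506.1 ± 30.6 normalised fragments in the PR domain knockout and 455.7 ± 9.48 in its control (SD, n = 2 each). HoxA sums averaged 111.8 ± 2.12 in the knockout and 122.8 ± 5.73 in the control. Visceral endoderm markers moved in this comparison too, with 9 of 10 higher and 1 lower, and sums of 10040 to 10140 in the knockout, against 5505 to 5805 in the control. Among the 9, Amn had at most 8.27 normalised fragments in the libraries compared. It passed the filter only through the Prdm16 knockout and its control. Of 8 blood markers 7 rose, and none fell. Their part in the Hox values was not tested.

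The difference of the 2 knockout effects was tested directly, as the effect of the PR domain knockout minus that of the Prdm16 knockout. Hoxd8 alone passed, with a difference of -1.14 ± 0.33 on the log2 scale and a limma adjusted p of 0.0152. This is 1 of 22 Hox loci, or 4.55%, against 16.4% of all tested loci, of which 7.81% were higher and 8.6% lower. Hoxc6 had a difference of -1.11 ± 0.39, with a limma adjusted p of 0.0515. At an unadjusted p below 0.05 there were 5 Hox loci, which added Hoxd9, Hoxa13 and Hoxb4, and all 5 differences were negative. The share of all tested loci at that looser threshold was not taken. The count of 5 and its shared direction are thus a description and say nothing particular about Hox genes. The Hoxd8 call was lost without PR domain control replicate 1, at -0.83 with a limma adjusted p of 0.131, and without Prdm16 control replicate 2, at -1.09. For the other Hox loci called in a single knockout, the effects are not shown to differ between the knockouts.

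Both control sets are labelled wild type, and the PR domain control was compared with the Prdm16 control to see how far the sets differ where no gene was removed. This comparison shares control libraries with those above. Of the 22 tested Hox loci, 5 were lower and 1 was higher in the PR domain control. The share called was 27.3%, against 33.0% of all tested loci, and thus near the background. By direction, 22.7% of Hox loci were lower, against 16.7% of all, and 4.55% were higher, against 16.3%. Both PR domain control libraries lay below both Prdm16 control libraries for 14 Hox loci and above both for 4, where the shares over all loci were 33.1% and 32.1%. The 14 include Hoxa9, the second Hoxc4 locus and Hoxc9, which passed the filter only through the Prdm16 knockout and its control.

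The loci that were lower have numbers 9 to 11 in the HoxA and HoxD clusters, apart from Hoxd3/Hoxd4. Hoxa10, a gene of the posterior trunk and limb, had 10.1 and 11.4 normalised fragments in the PR domain control, against 33.9 and 27.3 in the Prdm16 control. The log2 fold change was -1.42 ± 0.33 with a limma adjusted p of 0.00115, and the call held in all 20 alternatives. Hoxa9, which acts in the posterior trunk and in blood progenitors, had 11.2 and 6.19 in the PR domain control, against 24.4 and 22.6 in the Prdm16 control. Since Hoxa9 passed the filter only through the groups where it is high, its call is counted above but is a description, with a log2 fold change of -1.39 ± 0.40. It was not called without Prdm16 control replicate 1, at -1.33, or without PR domain control replicate 2, at -1.01. The sets do not overlap for either gene.

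Hoxd9 had 20.3 and 13.4 normalised fragments in the PR domain control, against 29.7 and 39.5 in the Prdm16 control, a log2 fold change of -1.01 ± 0.29 with a limma adjusted p of 0.00722. Hoxd10/Hoxd11, genes of limb and posterior spinal cord, had 13.2 and 10.3, against 28.6 and 26.3. Their log2 fold change was -1.17 ± 0.35 with a limma adjusted p of 0.0101. Hoxd3/Hoxd4, genes of the neck region, had 31.4 and 24.8 in the PR domain control, against 41.4 and 49.9 in the Prdm16 control, a log2 fold change of -0.68 ± 0.25 with a limma adjusted p of 0.0370. The sets do not overlap for any of these loci. Each call was lost without PR domain control replicate 2, at -0.73 for Hoxd9, -1.005 for Hoxd10/Hoxd11 and -0.52 for Hoxd3/Hoxd4. The Hoxd9 call was also lost without Prdm16 control replicate 2, at -0.81, and that of Hoxd10/Hoxd11 without Prdm16 control replicate 1, at -1.11. That of Hoxd3/Hoxd4 was lost without either Prdm16 control library, at -0.81 and -0.55.

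Hoxb4 went the other way, with 94.3 and 91.9 normalised fragments in the PR domain control, against 54.1 and 71.5 in the Prdm16 control. Its log2 fold change of 0.57 ± 0.17 had a limma adjusted p of 0.00790. The call was lost without Prdm16 control replicate 1, at 0.38, and without PR domain control replicate 1, at 0.56. In HoxB, 5 of the 6 tested loci had positive estimates, with a median of 0.28 on the log2 scale. All tested loci of HoxA, HoxC and HoxD had negative ones, with medians of -0.53, -0.51 and -0.85. Among them, Hoxa9, the second Hoxc4 locus and Hoxc9 passed the filter only through the Prdm16 knockout and its control. The shared direction and the medians of HoxA and HoxC are thus a description and no support.

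By paralogue number, all 7 tested loci numbered 9 to 13 had negative estimates. Another 7 loci of these numbers did not pass the filter, and Hoxa9 and Hoxc9 passed it only through the Prdm16 knockout and its control, so this count is a description and supports nothing. Summed over all 14 loci, tested or not, numbers 9 to 13 had 109.5 and 85.7 normalised fragments in the PR domain control, against 197.2 and 190.0 in the Prdm16 control, a ratio of 0.504. Loci numbered 4 to 8 summed to 281.9 and 248.7, against 283.1 and 279.3. Of all Hox fragments of a library, numbers 9 to 13 took 13.4% (95% Wilson interval 11.3 to 16.0) and 11.2% (9.13 to 13.7) in the PR domain control, against 22.6% (19.9 to 25.6) and 21.6% (19.1 to 24.3) in the Prdm16 control. The intervals cover counting error within a library only and leave out variation between libraries. The libraries carry no molecular identifiers, so fragments may be PCR copies, in which case the intervals are too narrow even for counting error.

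The same shares were 10.7% and 9.55% in the PR domain knockout and 23.7% and 20% in the Prdm16 knockout, so each knockout lay nearer to its own control than to the other one. The HoxB cluster took 59.2% and 63.5% of Hox fragments in the PR domain knockout and 56.7% and 58.7% in its control. It took 38.5% and 44.4% in the Prdm16 knockout and 40.0% and 43.3% in its control. No test was made on these shares.

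**Figure D3:**
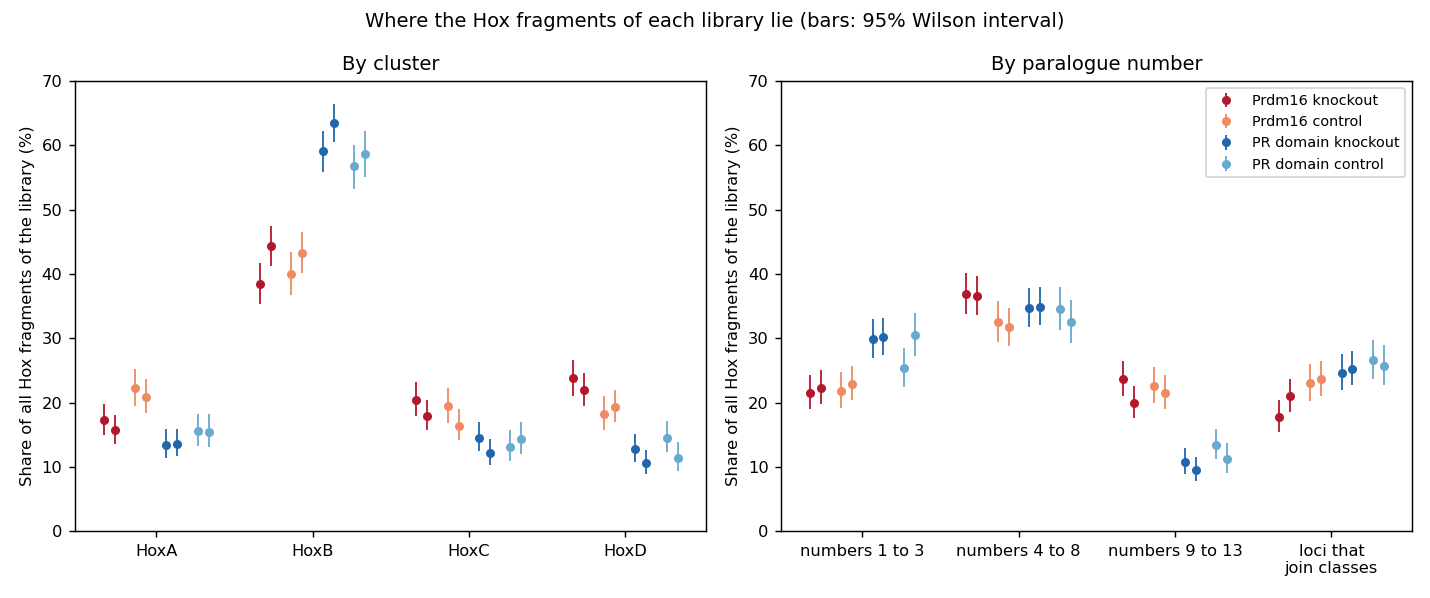
Share of all Hox fragments of a library (%) that fell in each cluster (left) and in each range of paralogue numbers (right), with 95% Wilson intervals as bars and a point for each library. Loci that join classes are those with 2 Hox names from different ranges. HoxB holds 56.7 to 63.5% in the 4 libraries of the PR domain knockout and its control, and 38.5 to 44.4% in the 4 of the Prdm16 knockout and its control.

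Markers of other cell types separated the control sets as well, where 16.3% of all tested loci were higher and 16.7% lower. All 10 visceral endoderm markers were lower in the PR domain control, with sums of 5505 to 5805, against 37030 to 38680 in the Prdm16 control. Of these, Amn passed the filter only through the Prdm16 knockout and its control, so its call is a description. All 6 endothelial markers were higher, with sums of 6404 to 6631, against 4678 to 4719. Their part in the Hox differences was not tested.

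Genes beside the clusters and RNAs within them were looked at next. Evx1, a homeobox gene 52618 bases beyond Hoxa13, had 1.01 and 3.10 normalised fragments in the PR domain control, against 39.2 and 34.8 in the Prdm16 control. It passed the filter only through the Prdm16 knockout and its control, so no test is given for that difference. It had 17.4 and 23.1 in the Prdm16 knockout, below both values of its control, and that change did not pass, at -0.85 ± 0.47 with a limma adjusted p of 0.154. PR domain knockout libraries had 3.59 and 3.31. Evx2, at the same end of the HoxD cluster, was not tested and had at most 3.18 normalised fragments. Of the 3 protein-coding genes on either side of each cluster, 19 of 24 were tested. In the Prdm16 knockout 1 of these rose, Nfe2l2 beyond the HoxD cluster at 0.56 ± 0.07, and 5 fell, where 18.0% of all tested loci were higher and 21.1% lower. Against its own control, the PR domain knockout had 1 that rose, Skap2 beside the HoxA cluster at 0.61 ± 0.11 with a limma adjusted p of 9.37e-05, and 3 fell, where 8.48% of all tested loci were higher and 10.7% lower. These shares over all loci are the background for the list counts that follow. On the FPKM scale the Skap2 call was lost, at 0.65 with a limma adjusted p of 0.311.

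Of the non-coding RNAs within the clusters, 5 loci were tested. Hoxb3os, antisense to Hoxb3 and Hoxb2, had 224.6 and 182.6 normalised fragments in the Prdm16 knockout, against 162.2 and 151.4 in its control, without overlap. Its log2 fold change of 0.37 ± 0.12 had a limma adjusted p of 0.0127. Since it overlaps Hoxb2, whose rise was of like size, and no strand setting is given, reads of the pair cannot be told apart. Hoxb3os was also higher in the PR domain control than in the Prdm16 control, at 0.40 ± 0.12 with a limma adjusted p of 0.00900. The first call was lost without Prdm16 knockout replicate 1, at 0.22, and Prdm16 control replicate 2, at 0.32. The second was lost without Prdm16 control replicate 2, at 0.35, and PR domain control replicate 2, at 0.33. Gm11539, the other tested non-coding locus of HoxB, was not called in either knockout. It was lower in the PR domain control than in the Prdm16 control, at -0.53 ± 0.17 with a limma adjusted p of 0.0152. Hotairm1, Hoxa11os and Haglr were tested and not called in any comparison. No non-coding RNA of the HoxC cluster was tested, and the 7 loci summed to at most 2.12 normalised fragments in a library.

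Of 12 listed Cdx and axial genes that act upstream of Hox clusters, 8 were tested. In the Prdm16 knockout 1 rose and 5 fell, with a median log2 fold change of -0.43. Cdx2, which binds and opens Hox clusters in posterior tissue, had 132.8 and 144.1 normalised fragments in the Prdm16 knockout, against 101.8 and 93.1 in its control, a log2 fold change of 0.50 with a limma adjusted p of 0.0313. In the PR domain knockout it had 58.3 and 81.9, against 37.5 and 47.5 in the control, a log2 fold change of 0.70 ± 0.19 with a limma adjusted p of 0.00643. Cdx2 was thus above both controls in both knockout libraries of each kind. The first call was lost on leaving out any of the 4 libraries compared, with values from 0.44 to 0.57. The second was lost without PR domain knockout replicate 2, at 0.46, and without PR domain control replicate 1, at 0.53. Fgf8, a signal of the tail bud, fell in the Prdm16 knockout by 2.08 on the log2 scale. T, the Brachyury factor of early mesoderm, had 1.24 and 3.30 in the Prdm16 knockout, against 31.8 and 30.1 in its control, and 1.79 to 3.10 in the 4 libraries of the PR domain knockout and its control. T is among the 5 that fell but passed the filter only through the Prdm16 control, so its part in that count and median is a description. Cdx1, Cdx4, Msgn1 and Wnt3a were not tested, and Msgn1 was at 0 in every library.

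All 17 listed genes of the retinoic acid pathway were tested, and 6 rose and 7 fell in the Prdm16 knockout, where 18.0% of all tested loci were higher and 21.1% lower. Aldh1a2, which makes retinoic acid, had 156.3 and 170.5 normalised fragments in the Prdm16 knockout, against 73.2 and 88.4 in its control, a log2 fold change of 1.01 ± 0.13. Cyp26a1, which breaks it down, had 75.7 and 79.2, against 250.2 and 274.6, a log2 fold change of -1.75 ± 0.18. Both passed, with limma adjusted p-values of 1.91e-07 and 3.76e-09. Cyp26b1, with the same role, fell by 2.55, and the receptor gene Rarb rose by 0.67 on that scale. Aldh1a3, which also makes retinoic acid, went against Aldh1a2, at -1.78 ± 0.37 with a limma adjusted p of 0.000287. Rdh10 of the list fell too, at -0.51 ± 0.11 with a limma adjusted p of 0.000363. In the PR domain knockout 4 genes of the list rose and 5 fell, among them Aldh1a2 at 0.89 ± 0.13 and Cyp26a1 at -1.44 ± 0.18. Aldh1a3 again fell, at -1.57 ± 0.37 with a limma adjusted p of 0.00236. The difference of the 2 knockout effects was -0.13 ± 0.18 for Aldh1a2 and 0.30 ± 0.25 for Cyp26a1, and neither passed. Aldh1a2 was higher and Cyp26a1 lower in the PR domain control than in the Prdm16 control, at 0.97 ± 0.13 and -1.60 ± 0.18.

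**Figure D4:**
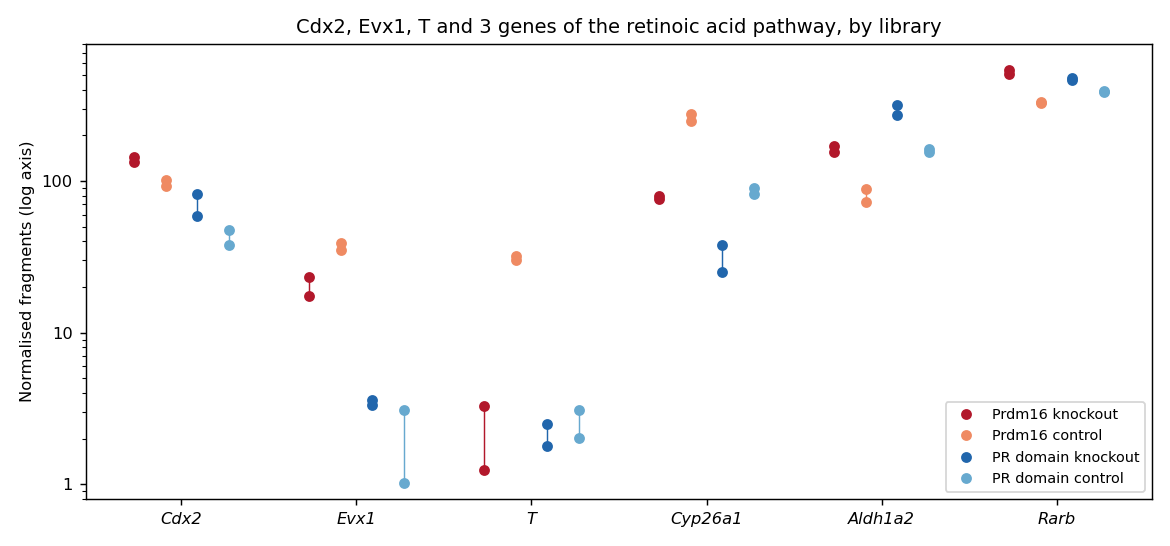
Normalised fragments (log axis) of Cdx2, Evx1, T and the retinoic acid genes Cyp26a1, Aldh1a2 and Rarb, with 2 libraries (points) for each of the 4 groups. Evx1 and T stand at 30.1 or more in the Prdm16 control libraries and at 3.59 or less in the PR domain knockout and its control, and Cyp26a1 is lower and Aldh1a2 higher in each knockout than in its control.

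Chromatin regulators and cofactors of Hox genes moved by small amounts. Of 16 Trithorax and demethylase genes, 11 fell in the Prdm16 knockout and none rose, with a median log2 fold change of -0.22 against -0.03 over all loci. Kmt2a, whose product maintains Hox expression, had 712.2 and 716.3 normalised fragments in the knockout, against 1082 and 993.2 in the control, a log2 fold change of -0.54 ± 0.06, which was not called on the FPKM scale, at -0.45 with a limma adjusted p of 0.315. Of 31 Polycomb genes 7 rose and 9 fell, with a median of -0.07. In the PR domain knockout, 1 of the Trithorax list rose and 4 fell, and 1 of the Polycomb list rose and 2 fell. Of the 9 Pbx, Meis and Pknox genes, 2 rose in the Prdm16 knockout, Pbx3 by 0.77 ± 0.06 among them, and none was called in the PR domain knockout, where Pbx3 had an estimate of 0.16 ± 0.06.

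Of 12 genes described as Hox targets in other tissues, 11 were tested. In the Prdm16 knockout 5 rose and 4 fell, with a median log2 fold change of 0.04, so the list had no common direction. Wt1, a regulator of kidney and mesothelium, rose by 1.12 ± 0.09, and Six2 and Gdnf, which Hox proteins activate in the kidney, fell by 3.60 and 2.16. Wt1 and Six2 moved the same way in the PR domain knockout, by 1.15 ± 0.09 and -2.10 ± 0.31. Gdnf was lower there too, at -0.70 ± 0.24 with a limma adjusted p of 0.0408, and that call was lost in 11 of 21 alternatives. Of 7 tested hindbrain segmentation genes, Egr2, a rhombomere factor that activates Hoxb2, rose by 1.495 ± 0.10 in the Prdm16 knockout. It fell by 0.56 in the PR domain knockout, and neither change was called on the FPKM scale. Egr2 had 311.4 and 290.5 normalised fragments in the Prdm16 knockout, against 99.7 and 112.9 in its control, and 321.2 and 303.6 in the PR domain knockout, against 447.2 and 471.7 in its control.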

How the data were processed

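RNA from 8 mouse embryoid body libraries of day 9 was sequenced, per the labels' protocols. Tools named in the submitters' processing notes, with no roles, are Cufflinks 2.2.1, TopHat2 2.1.1, deepTools and SAMtools 1.5, and the build is mm10. No strand setting is named in these sources. The authors deposited signal values, which the values show to be fragment counts scaled by 1 factor per library: 99.95 to 100.0% are whole multiples of 1 step within a tolerance of 0.1. They also deposited FPKM values, used here for levels between genes and as an alternative. Loci with no gene name held 1.88 to 2.53% of fragments and were left out.

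A locus was tested if at least 2 libraries reached 10, which 16623 loci did. limma-trend 3.58.1 in R 4.3.3 was fitted to log2(value + 1) with 4 group means over all 8 libraries (4 residual and 25.4 prior degrees of freedom). Fold changes are on that scale and understate those of low loci. A Benjamini-Hochberg adjusted p below 0.05 over all tested loci counted as a call. Each knockout was set against its own control, the effects were set against each other, and the PR domain control was set against the Prdm16 control. The scripts were tested on simulated data. Alternatives were TMM, median-ratio and total-fragment scaling, voom, edgeR 4.0.16 and DESeq2 1.42.0 on the recovered fragments, log2(FPKM + 1), pseudocounts of 0.5 and 5, other filters, fits on the libraries compared, a replicate block and each library left out. On recovered fragments edgeR called 38.9% of loci for the Prdm16 knockout and 20.6% for that of the PR domain. Replicates varied beyond sampling noise, as chi-square divided by its degrees of freedom was 1.37 to 2.14.

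Cluster and gene coordinates came from GENCODE M21 (GRCm38) and promoters from RefSeq (GRCm38.p6). The members and lists were chosen with earlier results of these data known. Members were named, those called were given by library, and up to 4 genes with the smallest adjusted p were taken per list and comparison. Cdx2 in the Prdm16 knockout, Aldh1a3, Rdh10, the genes of the regulator plot and the marker lists described were chosen after their values were seen. Of the Hox members, 1 is in the counts and sums but is not reported here by name.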

Additional observations from a re-analysis of the deposited data

Results flagged for a closer look

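The test of the difference between the 2 knockout effects was passed by 1 Hox locus and 10 of the other genes named. Each value is the log2 fold change in the PR domain knockout minus that in the Prdm16 knockout, with limma adjusted p below 0.05. Hoxd8 differed by -1.14, with log2 fold changes of -0.21 in the PR domain knockout and 0.93 in the Prdm16 knockout. The PR domain control libraries had 49.7 and 32.0 normalised fragments. Genes whose difference was negative were Egr2 at -2.05, Pbx3 at -0.62, Nfe2l2 at -0.49 and Rarb at -0.40. Those with a positive difference were Six2 at 1.496, Cyp26b1 at 1.47, Gdnf at 1.46, Fgf8 at 1.22 and Kmt2a at 0.52. The Fgf8 call was lost in 14 of 20 alternatives, with limma, edgeR or DESeq2 adjusted p up to 0.271, that of Six2 in 10 of 20, and that of Hoxd8 in 5 of 20. T gave 3.19, but it had at most 3.30 normalised fragments in 3 of the 4 groups and passed the filter only through the Prdm16 control, so its value follows from where it is high and is no evidence of a difference.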

How the results depend on the processing

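No call on a Hox locus or another named gene changed direction under any alternative that was run, and a DESeq2 adjusted p given as NA was left out. Aldh1a3, Rdh10 and the markers Sox1, Zic1, Nkx6-1 and Amn were not followed through the alternatives. In the Prdm16 knockout, 8 Hox loci were called, against 3 with DESeq2, 3 on log2(FPKM + 1), 5 with no filter beyond a value above 0, and 3 to 8 on leaving out a library. In the PR domain knockout, the 1 locus called became 0 with DESeq2, voom, FPKM, no filter, a filter of 50 and a fit on the libraries compared, and 0 to 1 on leaving out a library. DESeq2 called 10.8% of all loci there. The difference of the effects gave 1 call, 2 with TMM scaling, edgeR, voom or a pseudocount of 5, and 0 with DESeq2, FPKM or no filter, with 0 to 2 on leaving out a library. Between the control sets 6 were called, 1 with DESeq2, 1 on FPKM, 2 with a filter of 50, and 2 to 6 on leaving out a library. The filter of 50 left 7 Hox loci in place of 22. Of 16 calls on single Hox loci, 12 were lost with DESeq2 and 12 on FPKM, and none with edgeR, TMM scaling or either pseudocount. The cause was not tested.

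The replicate numbers name libraries, and the labels do not say that they pair them. Deviations of same-numbered libraries correlated at -0.03, 0.03 and 0.02 over loci. With the replicate number as a block, 8, 1, 1 and 7 Hox loci were called in the 4 comparisons. Tested Hox loci had 4.49 to 180.3 normalised fragments in a library, and standard errors of the log2 fold changes in each knockout ran from 0.12 to 0.46, which limits the size of change that this design detects.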
